A study of Homo sapiens with 12 samples.

Results

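The regions described here are the PPARγ peaks on the long-arm segments that are gained in MCF10A, together with a 1 Mb window at 9p21 around the tumour suppressor CDKN2A. A peak was a member when its start lay on chr1 at 144 Mb or beyond (1q), on chr5 at 125 Mb or beyond (5q), on chr8 at 98 Mb or beyond (8q), or in chr9:21500000-22500000. Positions alone chose the members, and no measured value entered the rule. The peak list of pooled wild-type libraries held 2813 members on the gained segments (1318 on 1q, 805 on 5q and 690 on 8q) and 8 at 9p21, of 25164 peaks in all. The pooled KQ list held 400 members (216 on 1q, 87 on 5q and 97 on 8q) and none at 9p21, of 2846 peaks. Together 3221 of 28010 peaks of the pooled lists were members.

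The study mapped PPARγ on chromatin by ChIP-seq in MCF10A-NeuT, human mammary epithelial cells that carry the NeuT oncogene, and its series holds 12 libraries in 6 groups of 2. Used here were the 4 ChIP libraries of cells that stably carried, from a retrovirus with a GFP marker, either wild-type PPARγ (WT) or the mutant K154/155Q (KQ), with glutamine in place of lysine at both positions. Both groups share the cell line, the oncogene and the viral backbone. The vector ChIP libraries and all inputs were not analysed here. The labels name a PPARγ antibody and the design text an antibody to the Flag tag. The former would also pull down any PPARγ that the host cells make themselves. Nothing in the labels says that replicates came from separate cultures, so p-values measure the spread between these libraries only, which may be technical. The libraries held 18143 peaks (WT 1), 17859 (WT 2), 1263 (KQ 1) and 1035 (KQ 2). Read depth is unknown from these lists.

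PPARγ is a nuclear receptor that binds DNA as a partner of RXR, at pairs of the half-site AGGTCA spaced by 1 base, and is known for its control of lipid storage and differentiation. MCF10A is a spontaneously immortalised line, and its karyotype is known to carry extra copies of parts of 1q, 5q and 8q, the last including MYC, and a deletion at 9p21 that takes out CDKN2A, the gene of the cell-cycle inhibitors p16 and ARF. In a ChIP library, extra copies of a segment add fragments at bound and unbound places alike. A peak caller reports each peak's height relative to a local background, so both terms of its ratio can move with copy number. Copy number was not measured here, and its part in every difference described below was not tested.

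A few of the member peaks that lay on promoters are shown by sequence, since they let the receptor's motif be read beside the peak. They are the highest-fold reproducible WT promoter peaks of 1q and 5q, and the second-highest of 1q. Reproducible means that a pooled peak shared at least 1 bp with a peak in each library of the group. Each line gives the 250 bases before the RefSeq start site (GRCh38.p14, plus strand), and capitals mark the best match to 2 copies of AGGTCA around any 1 base (13 letters) on either strand where it had at most 3 mismatches in the 12 compared letters.
PPP1R12B, chr1:202348449-202348698: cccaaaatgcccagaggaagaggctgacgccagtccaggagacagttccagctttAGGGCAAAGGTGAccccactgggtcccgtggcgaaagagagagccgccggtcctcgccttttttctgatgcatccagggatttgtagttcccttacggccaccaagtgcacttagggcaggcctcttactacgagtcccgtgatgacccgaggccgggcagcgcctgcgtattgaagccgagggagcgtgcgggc
SLC50A1, chr1:155135125-155135374: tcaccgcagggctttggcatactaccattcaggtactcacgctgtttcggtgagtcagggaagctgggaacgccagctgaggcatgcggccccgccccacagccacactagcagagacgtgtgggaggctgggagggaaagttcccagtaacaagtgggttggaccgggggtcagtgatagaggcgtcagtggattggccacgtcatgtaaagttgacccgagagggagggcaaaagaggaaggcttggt
TMCO6, chr5:140639201-140639450: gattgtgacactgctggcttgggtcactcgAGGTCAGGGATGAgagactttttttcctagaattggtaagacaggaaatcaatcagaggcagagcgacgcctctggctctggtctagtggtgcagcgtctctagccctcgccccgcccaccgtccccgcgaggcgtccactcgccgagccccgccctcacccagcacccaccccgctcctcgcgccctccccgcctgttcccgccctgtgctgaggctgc

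PPP1R12B encodes a regulatory subunit of myosin phosphatase. The peak over its promoter had a fold enrichment of 12.6 in the pooled WT list (8.42 in WT 1 and 24.7 in WT 2) and 5.67 in the pooled KQ list. Its marked match had 2 mismatches, and 2.57% of all promoter windows held a match as close. In TMCO6, which encodes a transmembrane protein of little known function, the promoter peak had a fold of 9.44 in WT and 3.11 in KQ. The match marked there had 3 mismatches, as close as in 19.0% of all windows. SLC50A1, a sugar transporter gene, had a promoter peak of fold 11.8 in WT, no KQ peak and no match within 3 mismatches in its window. The summits of the SLC50A1 and TMCO6 peaks lay at -253 and -255 bases from the start site, just outside the bases searched. Part of each of these peaks was therefore not searched. Of the 1129 promoter windows of 300 bases on 1q (250 before to 50 after a start site, and a gene can have several), 22 (1.95%) overlapped a reproducible WT peak, against 1.2% on the rest of chr1 and 1.3% of all 22130 windows. A match within 3 mismatches stood in 11 of those 22 windows, which share 17 peaks, while 19.8% of all 1q windows held one. The match was sought in the whole window and need not lie in the peak. At DISP1, YOD1 and TMEM79 it lay outside the peak, and DISP1 and PRG4 were each counted with the same match in overlapping windows. Among windows with a reproducible peak it stood in 40% on the rest of chr1 and in 37.6% of all 287. On 5q, 8 of 567 windows (1.41%) overlapped a reproducible WT peak, against 1.73% on the rest of chr5, and 2 of the 8, which share 4 peaks, held such a match, against 17.6% of all 5q windows and 5 of the 9 windows with a reproducible peak on the rest of chr5. Promoters of chr8 were not used here. Most member peaks lay elsewhere: 102 of 1318 WT peaks on 1q (7.74%) and 51 of 805 on 5q (6.34%) had their summit within 1 kb of a protein-coding start, beside 6.52% of summits in the whole list, chr8 left out. In the KQ list these were 12 of 216 peaks on 1q and 3 of 87 on 5q, beside 5.56% of the whole list.

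Peaks were denser on each gained segment than on the rest of the same chromosome, in each of the 4 libraries. On 1q, peaks per Mb were 9.20 in WT 1, 8.68 in WT 2, 0.915 in KQ 1 and 0.619 in KQ 2, and on the rest of chr1 they were 6.17, 6.13, 0.458 and 0.278 in the same order. On 5q they were 9.99, 9.31, 0.797 and 0.673, against 5.58, 5.54, 0.320 and 0.272 on the rest of chr5. On 8q they were 11, 9.78, 0.680 and 0.744, against 6.20, 6.02, 0.541 and 0.306 on the rest of chr8. The gained value stood above the rest in every pair of values, with the narrowest margin on 8q in KQ 1, a ratio of 1.26. Over the 3 segments together the ratio was 1.64 in WT 1, 1.54 in WT 2, 1.92 in KQ 1 and 2.34 in KQ 2, a mean log2 ratio of 0.88 ± 0.27 (SD, n = 4). An exact sign-flip permutation test over the 4 libraries, two-sided, gave p = 0.13, the smallest it can give. Benjamini-Hochberg adjustment over the segments left the p at 0.13. The rest of chr1 includes the peak-free region around its centromere, which lowers its density. No pooled WT peak began there between 125 and 140 Mb. With length counted only in 1 Mb windows that hold a gene, the mean log2 ratio over the 3 segments together was 0.76, against 0.88 by full length.

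**Figure D1:**
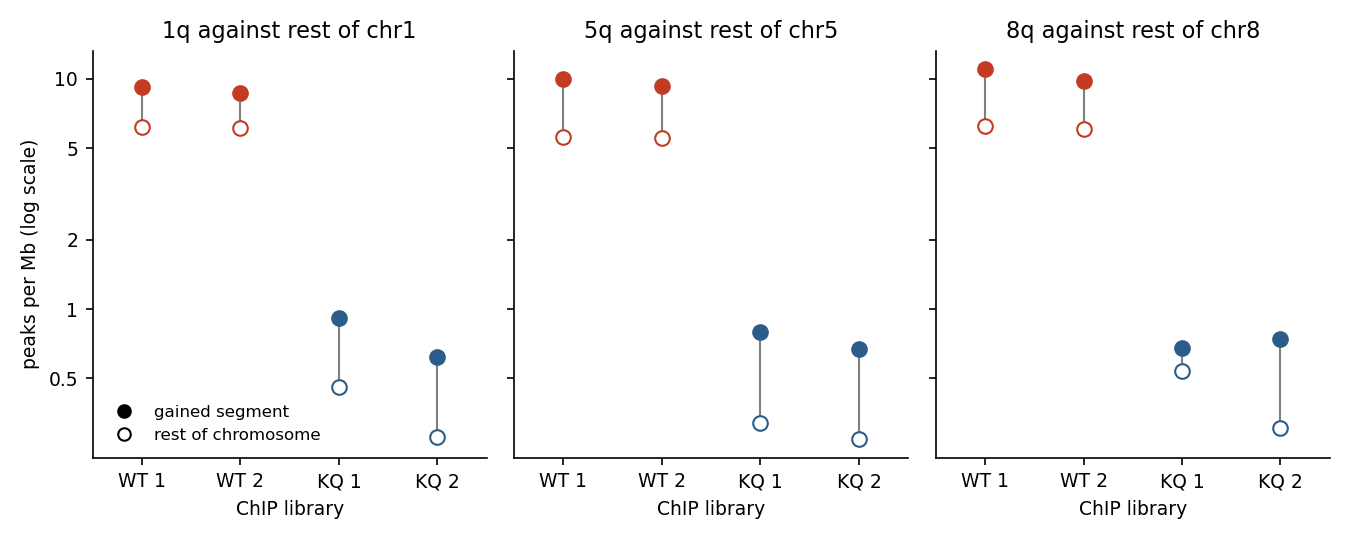
Peaks per Mb (log scale) in each ChIP library, for the gained segment (filled) and the rest of the same chromosome (open), with a line joining the values of 1 library. The filled point lies above the open one in all 12 pairs, from a ratio of 1.26 (8q, KQ 1) to 2.49 (5q, KQ 1).

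The pooled lists gave the same order. In the pooled WT list, density was 12.6 peaks per Mb on 1q against 8.84 on the rest of chr1, 14.3 on 5q against 7.59, and 14.7 on 8q against 8.87. All other autosomes together held 8.14 per Mb, and the 18 of them ranged from 6.06 to 10.1. By full length, centromeres included, each segment lay above the densest of them. The rest of chr1, chr5 and chr8 lay within their range. In the pooled KQ list the segments held 2.06 (1q), 1.54 (5q) and 2.06 (8q) peaks per Mb, against 0.861, 0.928 and 1.06 on the rests, and the other autosomes ranged from 0.532 to 1.26.

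Gene content differs between these arms, and the order by gene was not the same for 5q. The 1q segment holds 9.25 protein-coding genes per Mb against 7.58 on the rest of chr1, 8q holds 4.95 against 4.92, and 5q holds 8.30 against 3.48 on the gene-poor rest of chr5. On 8q, whose gene density matches the rest, peaks per gene were 2.22 in WT 1, 1.97 in WT 2, 0.137 in KQ 1 and 0.15 in KQ 2, against 1.26, 1.22, 0.110 and 0.0622 on the rest of chr8. On 1q they were 0.994, 0.938, 0.0989 and 0.0669, against 0.814, 0.808, 0.0605 and 0.0367. Both arms thus held more peaks per gene than the rest of their chromosomes in 4 of 4 libraries (mean log2 ratio 0.52 ± 0.32 on 1q and 0.77 ± 0.39 on 8q, SD, n = 4, exact sign-flip permutation p = 0.13). Benjamini-Hochberg adjustment over the segments raised the sign-flip p to 0.19 on both. On 5q the ratio was 0.751 in WT 1 and 0.705 in WT 2, below 1, and 1.04 in KQ 1 and 1.04 in KQ 2, and the mean log2 ratio of -0.20 ± 0.30 did not differ from 0 beyond the spread between libraries (exact sign-flip permutation p = 0.50).

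The gained segments took a larger share of the KQ peaks than of the WT peaks on the 3 chromosomes, but by a margin that 2 against 2 libraries cannot call. The share was 48.3% in WT 1 (95% exact binomial interval 46.8 to 49.8), 46.7% in WT 2 (45.2 to 48.3), 52.1% in KQ 1 (46.6 to 57.6) and 57% in KQ 2 (50.5 to 63.3). Both KQ libraries lay above both WT libraries, at 54.6 ± 3.5% against 47.5 ± 1.1% (SD, n = 2 each), and an exact permutation test gave p = 0.33, the smallest possible. By arm, both KQ libraries were above both WT libraries on 1q (59.3 and 61.9% against 52.1 and 50.8%) and on 5q (52.9 and 52.8% against 44.7 and 43.2%). On 8q the KQ libraries disagreed, at 37.6% in KQ 1 and 53.8% in KQ 2 around WT values of 46.0 and 43.8%. The pooled lists went the other way on 5q, at 42.9% in KQ against 45.9% in WT, while KQ was higher on 1q (63.5 against 50.9%) and 8q (48.3 against 44.3%). These intervals, like all others here, cover counting error only.

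The lists differ in length, and the order of WT and KQ depended on how that was handled. When the pooled WT list was shortened to the 2846 peaks of the pooled KQ list, its gained share was 54.5% by column 9 (−log10 q), 44.4% by column 7 (fold enrichment) and 64.1% by the recovered tags described next, beside 53.8% in the pooled KQ list and 47.6% in the whole WT list. KQ peaks that overlapped a WT peak had a gained share of 54.9% (336 of 612), and those that did not, 48.5% (64 of 132).

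Columns 7 and 8 of a peak list give the fold and its −log10 p, and each pair could be solved for the whole number of tags piled up at the summit and for the local background that the caller set against it. The solved values matched the deposited p within 0.001 for 100% of 66310 peaks. Whether the background came from input or from the ChIP library itself is not stated in these sources. Background was higher on each gained segment in each library. On 1q its median was 2.34 tags in WT 1, 0.688 in WT 2, 3.10 in KQ 1 and 3.07 in KQ 2, against 1.33, 0.448, 1.86 and 1.59 on the rest of chr1. For 5q the medians were 2.34, 0.672, 2.74 and 3.07, against 1.17, 0.448, 2.24 and 1.54. For 8q they were 2.34, 0.889, 3.73 and 3.04, against 1.41, 0.448, 1.90 and 1.65. In every pair the segment was above the rest, by ratios from 1.22 (5q, KQ 1) to 2.00 (5q, KQ 2). Taken over the 3 segments together the mean log2 ratio was 0.78 ± 0.14 (SD, n = 4), a 1.72-fold mean, with an exact sign-flip permutation p = 0.13. WT and KQ gave 0.76 ± 0.21 and 0.80 ± 0.13 (SD, n = 2 each), a difference within the spread between libraries (exact permutation p = 1).

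Tags at the summit also stood higher on the segments in 4 of 4 libraries, by less than the background. The median was 19 tags against 15 in WT 1, 11 against 8 in WT 2, 21 against 17 in KQ 1 and 21 against 15 in KQ 2, for a mean log2 ratio of 0.40 ± 0.09 (SD, n = 4, exact sign-flip permutation p = 0.13).

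The background changed along the chromosomes near, but not exactly at, the stated bounds. In 5 Mb windows of the pooled WT list with at least 20 peaks, 35 of the 39 windows on the gained segments (89.7%) lay above 2.37 tags, the 90th percentile of the 446 windows elsewhere, of which 3.81% lay above it. Medians within 0.001 of that value, which many windows share, were counted as ties, and 2 windows of the segments tied and 2 lay below. Along 1q the level was not even: the median was 2.02 tags in the first 6 Mb beyond the bound (35 peaks), 2.77 from there to 56 Mb beyond it (527 peaks) and 3.56 in the remainder of the arm (756 peaks). On chr5 the higher level began before the bound, with 1.86 tags from 10 to 6 Mb before it (38 peaks), 3.16 in the last 6 Mb before it (54 peaks) and 3.16 in the first 35 Mb beyond it (552 peaks). On chr8 it was 2.37 tags in the last 18 Mb before the bound (191 peaks), 3.16 in the first 12 Mb beyond it (169 peaks) and 3.56 from 17 to 37 Mb beyond it (435 peaks). From 12 to 17 Mb beyond it, where 1 protein-coding gene is annotated, 11 peaks had a median of 1.2 tags, the lowest of the stretches examined on 8q. In windows of the pooled KQ list with at least 5 peaks, 22 of 36 on the gained segments (61.1%) lay above 5.49 tags. That was the 90th percentile of the 229 windows elsewhere, of which 6.11% lay above it. On the segments 2 windows tied and 12 lay below. By stretch, the median in the pooled KQ list was 4.80 tags from 6 to 56 Mb beyond the chr1 bound and 7.09 in the remainder of 1q. On chr5 it was 4.14 tags from 10 to 6 Mb before the bound and 5.40 in the last 6 Mb, from 6 and 11 peaks.

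**Figure D2:**
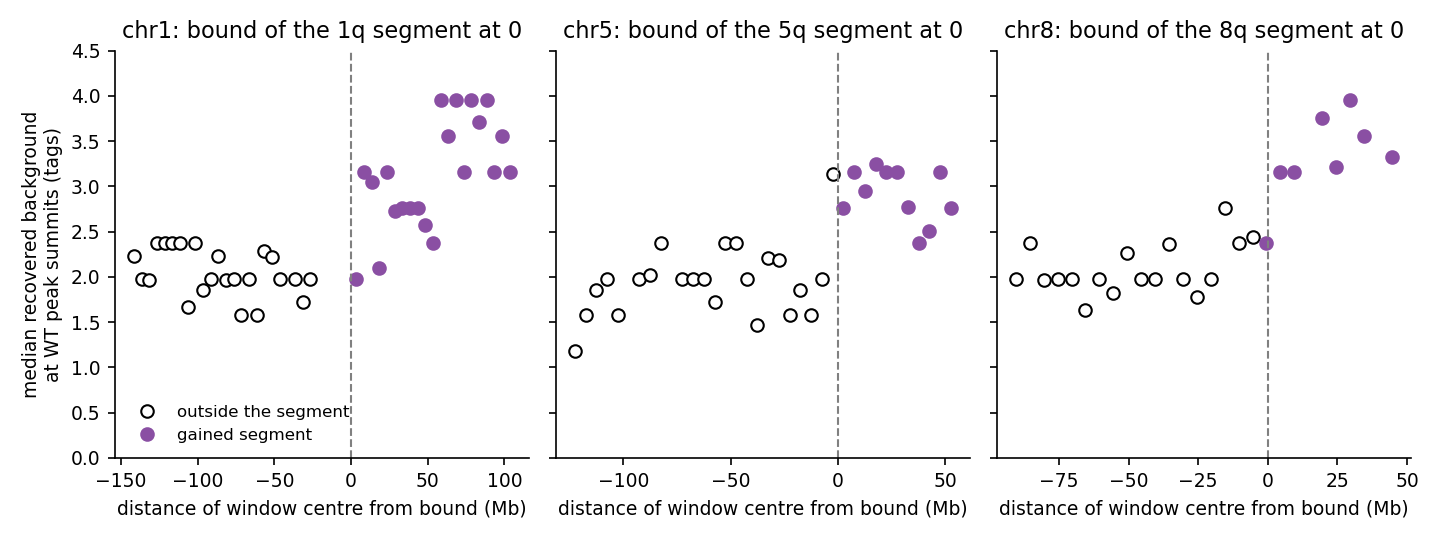
Median recovered background in tags at summits of the pooled WT list, in 5 Mb windows with at least 20 peaks, against the distance in Mb of the window's centre from the bound of the segment (dashed line, higher coordinates to the right). Windows beyond the bound (filled, with the window that holds the chr8 bound) lay between 1.98 and 3.95 tags, and on chr5 the last window before the bound was already at the level of the segment.

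At the bounds themselves neighbouring peaks were as follows. The last WT peak below 125 Mb on chr5 began 93.3 kb before the bound at a fold of 4.78 and a background of 2.77 tags, and the first above began 32.3 kb after it at 8.60 and 2.37. On chr8 the last peak below had a fold of 5.04 and a background of 1.58 tags, and the first above had 8.56 and 3.56. On chr1 the bound lies in the peak-free region around the centromere: the last WT peak below it began 22461 kb before it, with a fold of 3.49, and the first above began 0.413 Mb after it, with 3.29.

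Fold enrichment and −log10 q, the authors' own values, did not order the segments and the rest alike in every list. Median fold on the gained segments was 5.99 in WT 1, 6.13 in WT 2, 5.37 in KQ 1 and 5.51 in KQ 2, against 6.31, 5.84, 5.86 and 6.02 on the rest of the 3 chromosomes. It was lower in 3 libraries and higher in WT 2, with a mean log2 ratio of -0.06 ± 0.09 (SD, n = 4) that did not pass (exact sign-flip permutation p = 0.25). In the pooled lists it was lower on every segment: 5.71 against 6.20 on 1q, 5.84 against 6.19 on 5q and 5.70 against 6.11 on 8q in WT, and 4.31 against 5.10, 4.30 against 5.04 and 4.20 against 4.91 in KQ. The fold adds 1 to tags and to background, and this matters where the background is under 1, as in WT 2. With the ratio of tags to background taken without that 1, the gained segments were lower in 4 of 4 libraries. Ratios to the rest were 0.800, 0.815, 0.793 and 0.730 in the order WT 1, WT 2, KQ 1, KQ 2, a mean log2 ratio of -0.35 ± 0.07 (SD, n = 4, exact sign-flip permutation p = 0.13). Only called peaks are listed, and the tags-to-background ratio needed for a given Poisson p falls as background rises. How far this set the lower ratios was not tested, so they are not a measure of weaker binding.

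Median −log10 q was higher on the gained segments than on the rest in 4 of 4 libraries, at 7.96 against 7.36 in WT 1, 5.83 against 4.96 in WT 2, 6.21 against 6.06 in KQ 1 and 6.38 against 5.58 in KQ 2. The mean difference was 0.61 ± 0.32 (SD, n = 4, exact sign-flip permutation p = 0.13). By arm the direction was shared by all 4 libraries only on 8q, while KQ 1 was lower on 1q (by -0.16) and KQ 2 lower on 5q (by -0.68). In the pooled WT list the medians were 9.23 against 8.12 on 1q, 9.09 against 8.47 on 5q and 9.48 against 8.15 on 8q. In the pooled KQ list they were 7.30 against 7.91, 7.0 against 6.90 and 7.09 against 7.25, so that the pooled KQ list did not show the order of its own libraries.

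The choice of ranking therefore set where the segments appeared in a ranked list. Among the peaks of chr1, chr5 and chr8 in the pooled WT list, the gained share was 47.5% in the lowest of 10 equal bins by −log10 q and 57% (95% exact binomial interval 52.9 to 61.1) in the highest. By fold it was 63.1% in the lowest bin and 44% (39.9 to 48.1) in the highest. By tags over background it ran from 67.6% to 32.1% (28.4 to 36.1), under the limit on called peaks given above. In 4 equal bins of the pooled KQ list by fold, the lowest had a share of 68.8% and the highest 37.6%.

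**Figure D3:**
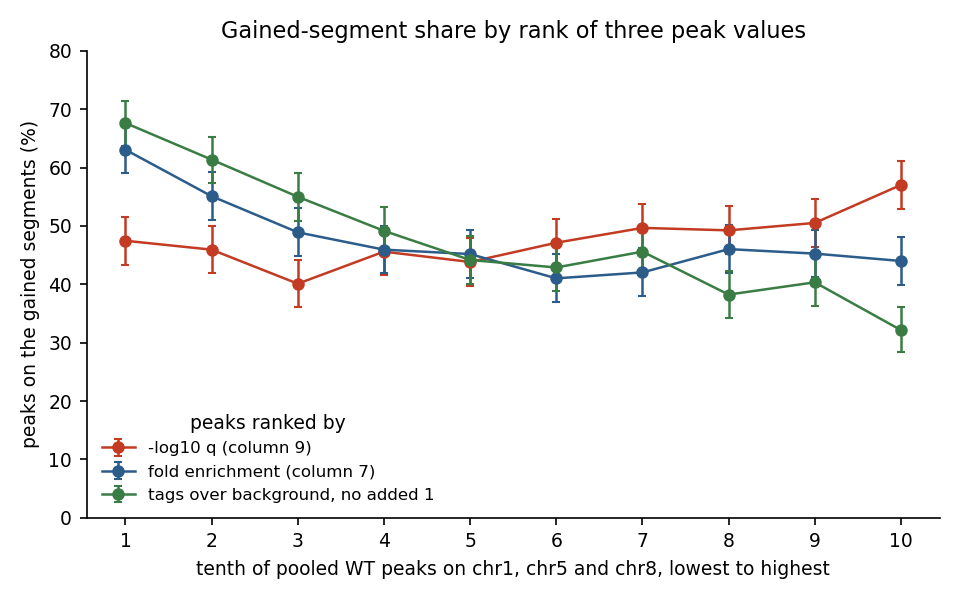
Percent of peaks on the gained segments in each of 10 equal bins of the pooled WT peaks of chr1, chr5 and chr8, ranked by −log10 q, by fold enrichment or by tags over background without the added 1. Bars are 95% exact binomial intervals, and the highest bin lies at 57%, 44% and 32.1% respectively.

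Reproducible WT peaks made up 36.7% of the members on the gained segments (1032 of 2813, 95% exact binomial interval 34.9 to 38.5), against 31.8% on the rest of the 3 chromosomes (30.1 to 33.4) and 31.9% of the whole list. The share was 36.6% on 1q, 34.3% on 5q and 39.7% on 8q. A KQ peak overlapped 12% of the WT members (337 of 2813), against 8.93% on the rest and 9.1% of the whole WT list. Of the KQ members 13.25% were reproducible (53 of 400, interval 10.1 to 17), beside 12.2% on the rest and 12.4% of the whole KQ list, a share near that background. A WT peak overlapped 84.0% of the KQ members (336 of 400), against 80.2% on the rest and 80.4% of the whole KQ list, and it overlapped all 53 reproducible ones, as it did all 42 on the rest and 340 of 354 in the whole list. Restricted to reproducible peaks, the median WT background was 3.56 tags on the gained segments against 2.37 on the rest, and the median fold 8.34 against 9.19.

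The highest-fold reproducible sites of 1q lay in MGST3 and near PGLYRP4. MGST3, a microsomal glutathione transferase that acts on lipid peroxides, held the highest-fold WT member (chr1:165637390-165637937), inside the gene, at 26.5 in WT 1 and 20.9 in WT 2, 34.9 pooled. In KQ it had a fold of 6.33 in KQ 1 and no peak in KQ 2. A peak 3.79 kb from PGLYRP4, which encodes an antibacterial peptidoglycan-binding protein, followed at 24.3 in WT 1 and 35.2 in WT 2, and stayed listed in KQ at 9.74 in KQ 1 and 8.47 in KQ 2. The same peak lay 5.22 kb from S100A9, a subunit of calprotectin. In BPNT1, a nucleotidase of sulfate metabolism, the intragenic peak had folds of 19.4 and 25.5 in WT 1 and WT 2, and 5.72 and 10.6 in KQ 1 and KQ 2. Folds here and below are as each list gives them, and since the lists were called separately they were not tested against each other.

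The other sites of the 8 named on 1q were nearest to TOMM20, a receptor of the mitochondrial import pore (25.5 pooled, 208 kb away), GPA33, an epithelial surface antigen (21.9), TNN, a tenascin of the matrix (21.2), PRPF3, a spliceosome protein (21.2), and FCGR3A, an immunoglobulin receptor (22.6). FCGR3A has a near-identical neighbour, so its reads are uncertain, and its background of 0.545 tags was the lowest of the 8.

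The 5q sites were led by ADAMTS19, a secreted metalloprotease gene, with an intragenic peak (chr5:129691243-129691566) of fold 17.3 in WT 1, 25.8 in WT 2, 5.99 in KQ 1 and 7.14 in KQ 2. Then came STK10, a kinase of lymphocyte migration (17.2 and 19.4 in WT 1 and WT 2, no KQ peak), and a second TMCO6 peak, 32.3 kb from the start site whose promoter is printed above but inside the gene's annotated span. That site had 16.2 in WT 1, 11.6 in WT 2, 6.55 in KQ 1 and 14.4 in KQ 2. EBF1, an early regulator of fat cell differentiation, held a peak of 13.5 in WT 1, 18.5 in WT 2, 6.35 in KQ 1 and 5.51 in KQ 2. Others were nearest to SLIT3, a guidance ligand (19.0 pooled), GNPDA1, an enzyme of amino sugar breakdown (18.6), ZNF608 (18.2) and MSX2, a homeobox regulator (18.2).

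On 8q, ZFAT, a zinc-finger regulator gene, held the leading peak (chr8:134552826-134553182) at 15.8 in WT 1 and 20.6 in WT 2, with 3.16 in the pooled KQ list and no peak in either KQ library. SYBU, which encodes a linker of vesicles to kinesin, was nearest to a peak of 22.2 in WT 1 and 14.4 in WT 2 that no KQ list held. SNTB1, a syntrophin of the dystrophin complex, had 21.1 and 16.6. HAS2, the hyaluronan synthase, was the nearest gene to a pair of peaks 441 and 546 kb away (17.5 and 20.4 pooled). TAF2, a subunit of the general factor TFIID, had a peak 8.55 kb away at 16.2 and 20.0 in WT, and 6.32 and 8.43 in KQ 1 and KQ 2. KLF10, a TGF-β-inducible repressor, held one at 17.4 in WT 1 and 12 in WT 2, with 5.85 in KQ 2 only. Another peak lay 224 kb from ANGPT1, its nearest gene (18.6 in the pooled WT list and 4.54 in the pooled KQ list). Of the 24 WT sites named on the 3 segments, 6 of 8 on 1q, 4 of 8 on 5q and 5 of 8 on 8q overlapped a peak of the pooled KQ list, beside 24.9% of all reproducible WT members on the segments and 20.1% of all reproducible WT peaks. The named sites were chosen for their fold, so these shares are not like for like.

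**Figure D4:**
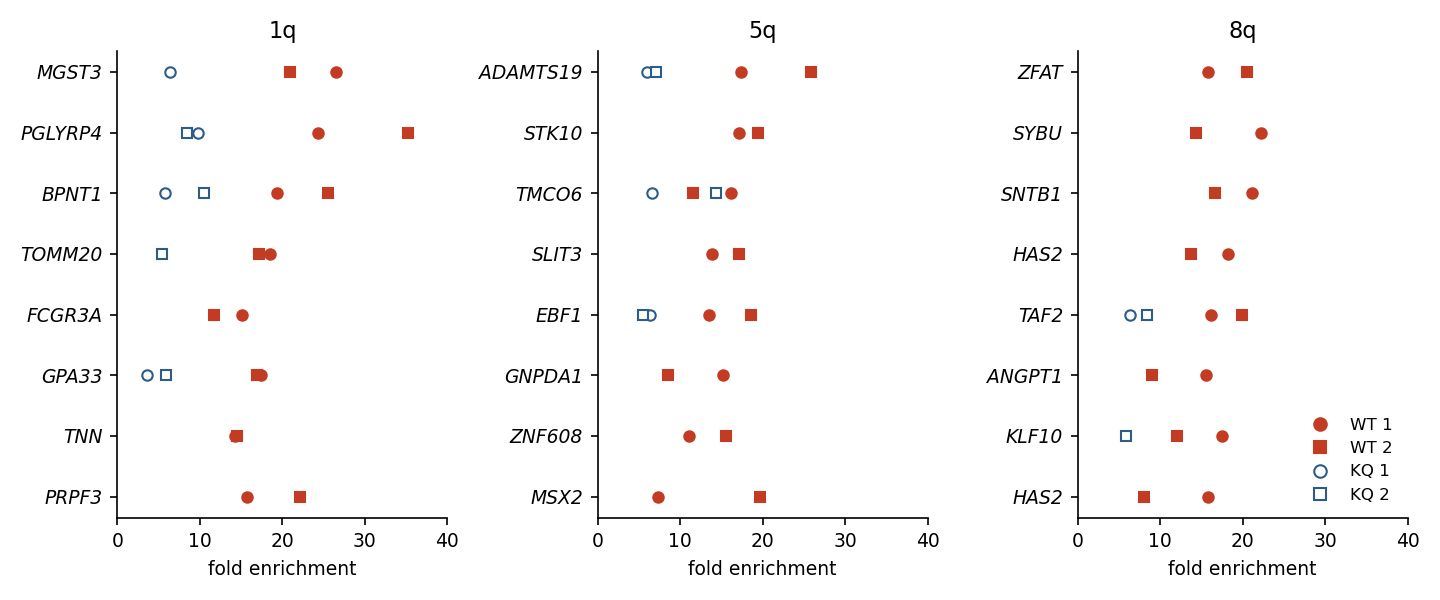
Fold enrichment in each ChIP library at the 8 highest-fold reproducible WT peaks of each gained segment, labelled by the nearest protein-coding gene (HAS2 is nearest to a pair of them). WT points are filled and KQ points open, and a missing KQ point means that no peak was listed in that library.

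The 4 highest-fold reproducible KQ members of each segment all overlapped a pooled WT peak, as did 96.0% of all reproducible KQ peaks. On 1q they lay in SMYD3, a lysine methyltransferase gene (10.4 pooled, 9.06 in KQ 1 and 10.0 in KQ 2, beside 10.7 in WT 1 and 9.91 in WT 2), at PGLYRP4, near GORAB, a Golgi protein gene (8.43 in KQ 1 and 9.75 in KQ 2, beside 6.87 in WT 1 and 13.2 in WT 2), and in BPNT1. On 5q they lay in TMCO6 (11.7), near ZNF354A (9.90 in KQ 1 and 9.33 in KQ 2, beside 7.49 in WT 1 and 6.60 in WT 2), in SQSTM1, the autophagy receptor p62 (7.49 in KQ 1 and 9.58 in KQ 2, beside 7.81 in WT 1 and 20.3 in WT 2), and in CCDC69 (6.82 in KQ 1 and 11.4 in KQ 2, beside 12.5 in WT 1 and 9.39 in WT 2). On 8q they were in ANGPT1, the vessel-stabilising ligand of TIE2 (8.31), near TAF2 (8.07), LRATD2 (7.70) and FAM135B (7.48).

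Genes of the gained segments had a reproducible WT peak within 50 kb more often than genes elsewhere: 822 of 1673 (49.1%, 95% exact binomial interval 46.7 to 51.6) against 795 of 2008 on the rest of the 3 chromosomes (39.6%, 37.4 to 41.8) and 37.7% of all 19974 protein-coding genes. By arm it was 47.7% on 1q, 50.7% on 5q and 51.9% on 8q. For KQ it was 92 of 1673 (5.50%) against 57 of 2008 (2.84%) and 2.68% of all. These intervals leave out that neighbouring genes share peaks. With a window of 5 kb the WT shares were 22.3% against 19.7%. By arm they were 20.0% against 17.5% on 1q, 23.5% against 23.7% on 5q and 29.6% against 21.2% on 8q. The order thus did not hold on 5q.

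Lipid and nuclear receptor genes of these arms were read from a list of 39. A reproducible WT peak lay within 50 kb of 24 of the 39 (10 of 15 on 1q, 10 of 13 on 5q and 4 of 11 on 8q). A reproducible KQ peak lay within 50 kb of 2. It was inside EBF1, and 48.9 kb from ENPP2, the autotaxin gene, where it is the peak named above near TAF2. The WT share of 61.5% stands beside 49.1% of all genes on the segments, and the KQ share of 5.13% beside 5.50%. Listed genes can share a peak, as G0S2 and HSD11B1 did, and APOA2 and NR1I3, so these shares are not like for like. G0S2, an inhibitor of the fat lipase ATGL, lay 4.57 kb from a peak of 12.5 in WT 1 and 15.1 in WT 2. LYPLAL1, a lysophospholipase-like gene, lay 2.15 kb from one of 12.5 and 13.2. NR5A2, a nuclear receptor of bile acid and steroid pathways, held one of 9.29 and 14.5. PPARGC1B, a coactivator of mitochondrial genes, held one of 7.36 and 6.75. The glucocorticoid receptor gene NR3C1 had its best peak 46.6 kb away, at 15.6 and 9.44. At RXRG, which encodes a partner receptor of PPARγ, the best peak had only 3.33 and 4.14. SQLE, an enzyme of cholesterol synthesis, and MAF1, a repressor of RNA polymerase III, had no pooled WT peak within 50 kb. DGAT1, the last enzyme of triglyceride synthesis, had one that was not reproducible (8.41 pooled).

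Growth and mammary epithelial genes were read from a list of 60. Of these, 40 (66.7%) had a reproducible WT peak within 50 kb and 7 (11.7%) a reproducible KQ peak. All protein-coding genes on the segments had 49.1% and 5.50%. These shares are not like for like, since listed genes can share a peak and PVT1 is not protein-coding. In both lists S100A8 and S100A9 shared a peak, as did SQSTM1 and MAML1. MYC, the oncogene of 8q24, had 3 pooled WT peaks in its window, none reproducible since WT 2 had none, and none in KQ. Its neighbour PVT1, a long noncoding RNA gene, had 13 pooled peaks of which 6 were reproducible, the best at 6.29 in WT 1 and 8.18 in WT 2. GRHL2, a regulator of epithelial identity, had 10 peaks with 7 reproducible, and DUSP1, a phosphatase that switches off MAP kinases, had 16 with 9 reproducible. PIK3C2B, a lipid kinase gene, held a peak of 13.8 in WT 1 and 14.4 in WT 2. LAMB3, a chain of laminin-332, shared the peak near G0S2. Among the genes with none in the pooled WT list were RAD21, NPM1, KISS1 and CXCL14.

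The densest 1 Mb window of each arm in the pooled WT list held 40 peaks on 1q (230 to 231 Mb, 18 reproducible, with AGT, the angiotensinogen gene, and GALNT2, an enzyme of mucin-type glycosylation), 36 on 5q (143 to 144 Mb, 12 reproducible, with NR3C1 and ARHGAP26) and 45 on 8q (133 to 134 Mb, 17 reproducible, with NDRG1, a stress-induced gene, CCN4, a WNT-induced matrix protein gene, and TG). A median window held 11, 11 and 15 peaks on the same arms. Background in these windows was 4.15, 3.56 and 3.95 tags, at or above the median of the arm in each case. The pooled KQ list held 6, 1 and 5 peaks in them.

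At 9p21 the number of WT peaks was ordinary for chr9, but none lay in the middle of the window. The pooled WT list held 8 peaks in the window, 5 were listed in WT 1 and 3 in WT 2, and 1 Mb windows of chr9 had a median of 7 (range 0 to 34). The KQ lists held none, like 49.3% of all autosomal 1 Mb windows in the pooled KQ list, so an absence of KQ peaks is not informative at this peak number. No pooled peak lay in CDKN2A (chr9:21967752-21995324), in its neighbour CDKN2B, which encodes the inhibitor p15, in MTAP, an enzyme of methionine salvage, or in DMRTA1. The nearest peaks around CDKN2A were at chr9:21616138-21616376, with a fold of 8.18, and at chr9:22169395-22169594, with 5.95. Neither is reproducible, since both were listed in WT 1 and not in WT 2. The 553 kb between them held no pooled peak, and 35 of 1059 gaps between neighbouring peaks on chr9 (3.31%) were as long, against a median gap of 41.4 kb. Such shares, here and in the next paragraph, count gaps whatever their length. A fixed place such as CDKN2A falls more often in a long gap than in a short one. The shares therefore do not measure how unusual the gap around it is.

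Single libraries differed on this gap. WT 1 listed a peak inside MTAP (chr9:21836613-21836755) of 7 tags over a background of 0.584 and a fold of 5.05, which neither WT 2 nor the pooled list had. With it the WT 1 gap around CDKN2A was 333 kb, and 85 of its 755 gaps on chr9 (11.3%) were as long. In WT 2 the gap around CDKN2A was 1547 kb, and 8 of its 714 gaps on chr9 were as long. The tallest member at 9p21, and the single reproducible one, was at chr9:22240728-22240917, with 5.05 in WT 1, 8.99 in WT 2 and 10.5 pooled. All 8 members lay outside protein-coding genes, and 2 of them fell in the long noncoding MIR31HG. Of the peaks on the rest of chr9, 43.3% lay outside protein-coding genes, as did 47.7% of the whole WT list. The 8 members share a single region and are not replicates, so they were not tested against these shares. How much of the window lies outside genes was not taken into account. None of the 4 protein-coding genes of the window had a pooled peak within 50 kb, against 66.1% of genes on the rest of chr9.

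Background at the 8 members had a median of 1.19 tags (0.616 to 2.37), against 1.98 on the rest of chr9, and 5.92% of the 169 chr9 windows with at least 5 peaks were at or below it. In WT 1 it was 0.584 against 1.24 (5 peaks), and in WT 2 0.448 against 0.448 (3 peaks), so the lower level was seen in 1 of 2 libraries. The 13 pooled peaks between 20 and 25 Mb outside the window had a median of 1.25 tags. Just beyond the window a reproducible peak at chr9:22603759-22603954 had a fold of 7.58 in WT 1, 5.24 in WT 2 and 11.2 pooled. The highest fold among the pooled WT peaks plotted around CDKN2A was 2.39 kb from PLIN2, the lipid droplet coat gene, at 20.8 in WT 1, 8.93 in WT 2 and 23.6 pooled.

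**Figure D5:**
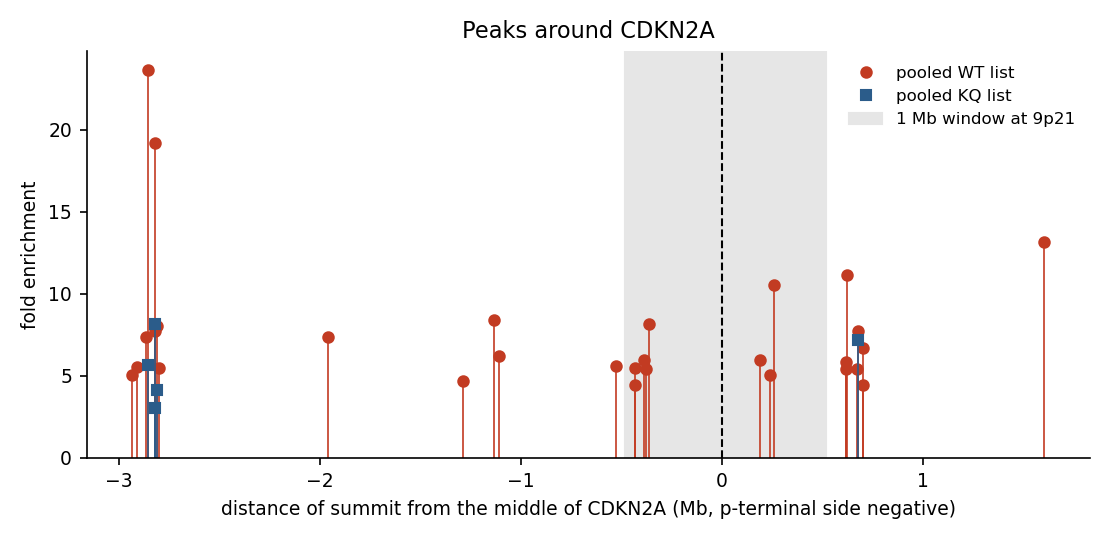
Fold enrichment of pooled WT peaks (circles, 29) and pooled KQ peaks (squares, 5) against the distance in Mb of the summit from the middle of CDKN2A, with the 1 Mb window shaded. The stretch around 0 holds no peak, and the highest peak is the one at 23.6 near PLIN2, outside the window.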

How the data were processed

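PPARγ ChIP-seq peak lists of 2 WT and 2 KQ libraries, and 1 list per group from its pooled libraries, were analysed. The submitters' processing notes name the hg38 build, Bowtie2 (version 2) for mapping, MACS2, bedtools, deepTools and HOMER. How the caller was set, and its control, are not stated in these sources. The deposited lists give each peak's fold enrichment (a ratio), −log10 p and −log10 q, made by the authors. They were tested within a list only, and folds of named peaks are given as each list has them. The deposited score of each peak, made by the authors' caller, was not used. Tags and background were solved from fold, (tags + 1)/(background + 1), and the Poisson −log10 p. The recovery was tested on simulated data. A second solution within tolerance existed for 0.300% of real peaks.

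Groups came from the labels' titles. Genes and start sites came from RefSeq tables (GRCh38.p14). A segment ran to the last annotated gene's end. Peaks outside the autosomes and X were left out. Libraries are the replicates: gained and rest were compared by exact sign-flip permutation (4 libraries, smallest p 0.13), WT and KQ by exact permutation (smallest p 0.33), both two-sided. Shares carry 95% exact (Clopper-Pearson) intervals. Named were the protein-coding genes nearest to the 8 highest-fold reproducible WT and 4 highest-fold reproducible KQ peaks per segment, the densest 1 Mb WT window per segment, the peaks beside CDKN2A, and listed genes. The members and lists were chosen with earlier results of these data known. Alternatives left out each library, used stricter q, pooled or reproducible peaks, summits, other autosomes, shifted bounds and other gene windows. Python 3.11.15, numpy 2.4.6, pandas 2.3.3 and scipy 1.17.1 were used.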

Additional observations from a re-analysis of the deposited data

Results flagged for a closer look

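Peaks per gene on 5q relative to the rest of chr5 lay below 1 in both WT libraries (0.751 in WT 1 and 0.705 in WT 2) and above 1 in both KQ libraries (1.04 in KQ 1 and 1.04 in KQ 2), so the groups moved in opposite directions. The difference of the mean log2 ratios was -0.52, and an exact permutation test gave p = 0.33, the smallest value that 2 against 2 libraries allow. The KQ ratios rest on 45 and 38 peaks on 5q against 40 and 34 on the rest of chr5. In the pooled KQ list the ratio was 0.696, below 1 as in the pooled WT list (0.787), so the opposite direction was not seen there.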

How the results depend on the processing

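Differences between gained and rest were followed here as means over lists, with the 3 segments merged. In that form, density, peaks per gene, background, fold and −log10 q kept their direction under every alternative run for them. Single lists and arms did not all share it. In the pooled KQ list the −log10 q difference was -0.156, and in WT 2 the fold ratio was 1.05. On 5q the per-gene ratio lay below 1 in both WT libraries and in both pooled lists (0.787 in WT and 0.696 in KQ). Leaving out each library in turn, the mean log2 density ratio ran from 0.76 to 0.96, the per-gene ratio from 0.21 to 0.41, the background ratio from 0.74 to 0.84, the fold ratio from -0.11 to -0.04, the −log10 q difference from 0.52 to 0.76, and the WT minus KQ share from -9.54 to -4.62 points. With replicate number as a block (same-numbered libraries paired), the share difference stayed at -7.08 points with an exact permutation p = 0.50, the smallest 2 pairs give, and the labels do not say that a number marks a shared batch. That share difference turned to 0.782 points with the pooled WT list cut to the number of KQ peaks by −log10 q and to 10.4 points by recovered tags, alternatives chosen after seeing the data. The share of genes with a reproducible peak within 50 kb moved, with a 5 kb window, to 22.3% in WT and 2.21% in KQ, and with all pooled peaks to 75.6% and 23.6%. The WT count at 9p21 was 5 and 3 in the single libraries and 16 between 21 and 23 Mb, where the KQ count was 1. WT minus KQ differences in the other measures changed sign in places: for background, they ran from -0.18 to 0.11 with each library left out, and were 0.093 in the pooled lists and 0.22 in reproducible peaks. For −log10 q they ran from -0.065 to 0.58 with each library left out and were -2.17 in reproducible peaks, and for fold -0.059 in reproducible peaks. No p over libraries can pass 0.05 in this design, so no call was gained or lost, and the KQ values rest on few peaks.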
